A study of Mus musculus with 18 samples.

Results

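Acute phase proteins are plasma proteins, mostly made by hepatocytes, whose concentration changes during inflammation or injury. The genes of this class followed here, 10 in number, were Saa1, Saa2, Saa3, Orm1, Orm2, Hp, Lbp, Crp, Lcn2 and Il1rn. All 10 were found among the 55335 genes of the bulk count table, all 10 passed the filter on low counts that left 17013 genes for testing, and they were read in all 12 bulk RNA-seq libraries. The libraries come from mouse liver tumours (hepatocellular carcinoma) of 2 models, each with 3 control libraries and 3 libraries labelled Prom1 depletion. In the DEN+CCl4 model the liver carcinogen N-nitrosodiethylamine (1 mg/kg) was given at 14 days of age and the hepatotoxin carbon tetrachloride (0.2 ml/kg) from 8 weeks of age for 12 to 16 weeks. Tumours of the N-Ras+AKT model were raised by hydrodynamic injection, which mainly reaches hepatocytes, of 20 µg each of plasmids carrying NRasV12 and myr-AKT together with 1.6 µg of a Sleeping Beauty transposase that inserts them. The strain label of all 12 libraries is Prom1C-L/+;Rosa26DTA/+, in which tamoxifen activates a Cre recombinase driven by the Prom1 promoter and so turns on diphtheria toxin A in any cell that uses this promoter, tumour cell or not. The design text instead names Prom1+/+;Rosa26DTA/+ littermates as controls and also mentions an olive oil vehicle, so whether a control lacked the knock-in, tamoxifen (4 mg a dose) or both is not settled. Tumours were taken 16 days after the last dose in the DEN+CCl4 model and 6 days after it in the N-Ras+AKT model, so model and time cannot be told apart. Libraries are called below by group and by the number in their title.

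In the textbook account, macrophages that sense injury or bacterial products release IL-1, TNF and IL-6. IL-6 acts on hepatocytes through its receptor, gp130 and STAT3, IL-1 and TNF act through NF-kB, and C/EBPb and C/EBPd join them at the promoters of acute phase genes. Positive acute phase genes such as the serum amyloid A genes rise, negative ones such as albumin fall, and IL-1 receptor antagonist and SOCS3 restrain the signal.

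Total counts were 31306617 to 48055812 per library. Levels are CPM, counts scaled by the library size after TMM normalisation, and at this depth 3 counts corresponded to 0.0495 to 0.107 CPM. Prom1 itself was 48.9 to 76.7 CPM in DEN+CCl4 controls, 17.4 to 40.0 after depletion there, 45.4 to 78.3 in N-Ras+AKT controls and 2.17 to 16.5 in the depletion libraries there. As the check of the labels, Prom1 fell in the N-Ras+AKT model by 2.90 (log2, SE 0.61, adjusted p = 0.00953), and in the DEN+CCl4 model its log2 difference was −0.995 (SE 0.57, adjusted p = 0.381). All tests are edgeR quasi-likelihood tests with Benjamini-Hochberg adjustment over the 17013 genes, of either direction, with a threshold of 0.05, and log2 differences carry a standard error (SE) over 3 against 3 libraries. Nothing in the labels says that the libraries of a group came from separate mice, and if they did not, p-values measure technical spread. Libraries DEN+CCl4 depletion 6 and N-Ras+AKT depletion 17 stood apart from their groups on the third and the second principal component of log2 CPM. N-Ras+AKT depletion 17 held the highest level of 4 of the 10 genes and DEN+CCl4 depletion 6 that of 3, so called results that leaving out either took below the threshold or moved by over 1.5-fold are also given without it. Reads of the annotated ribosomal RNA gene CT010467.1 made up 2.305% to 12.4% of counts in the DEN+CCl4 and 0.586% to 3.05% in the N-Ras+AKT libraries, and no member gained or lost a call when it was left out. The hepatocyte marker list (13 genes), which checks the label of liver tissue, summed to 98235 to 336566 CPM, with no marker at 0 in any library. These markers cannot tell tumour from surrounding liver.

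With Prom1 depletion the 3 serum amyloid A genes among the members rose in the N-Ras+AKT tumours, and Lcn2 and Il1rn fell. Thus 3 of the 10 genes were called higher, against 12.8% of all tested genes, and 2 lower, against 10.8%. Without depletion 17, 1 was called higher (Saa3) and 2 lower, where 983 of all 17545 genes tested were called higher and 785 lower. Without both libraries that stand apart 3 were called higher (Saa1, Saa3 and Orm2) and 2 lower, where the counts over all 17409 genes were 1339 and 1090. Without regard to the test, 5 of the 10 were higher in every depletion library than in every control (21.4% of all genes) and 2 were lower in every one (21.5%). The median log2 difference of the 10 genes was 0.44, and that of all tested genes −0.02. For the DEN+CCl4 tumours edgeR called 0 of the 10 higher and 0 lower, where all tested genes gave 0.112% higher and 0.259% lower. At an unadjusted p under 0.05, 4 of the 10 were higher there and 0 lower, where 3186 of the 17013 genes passed in either direction. DESeq2 called 4 higher (Lcn2, Orm1, Orm2 and Lbp), where 378 of 15679 genes were called higher. Limma voom called 0, where 23 of 17013 genes were called higher. Groups did not overlap for 5 genes that were higher (11.5% of all genes) and for 1 that was lower (16%), with a median of 0.37 over the 10 genes. The difference of the depletion effects, N-Ras+AKT minus DEN+CCl4, was called for Saa3 in the higher direction (1 of 10, against 7.98% of all genes) and for Lcn2 and Il1rn in the lower one (2 of 10, against 3.6%). This difference uses the same libraries as the 2 depletion comparisons, so it is no separate evidence. In bulk tissue, fewer cells of a type and less RNA per cell cannot be told apart.

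**Figure D1:**
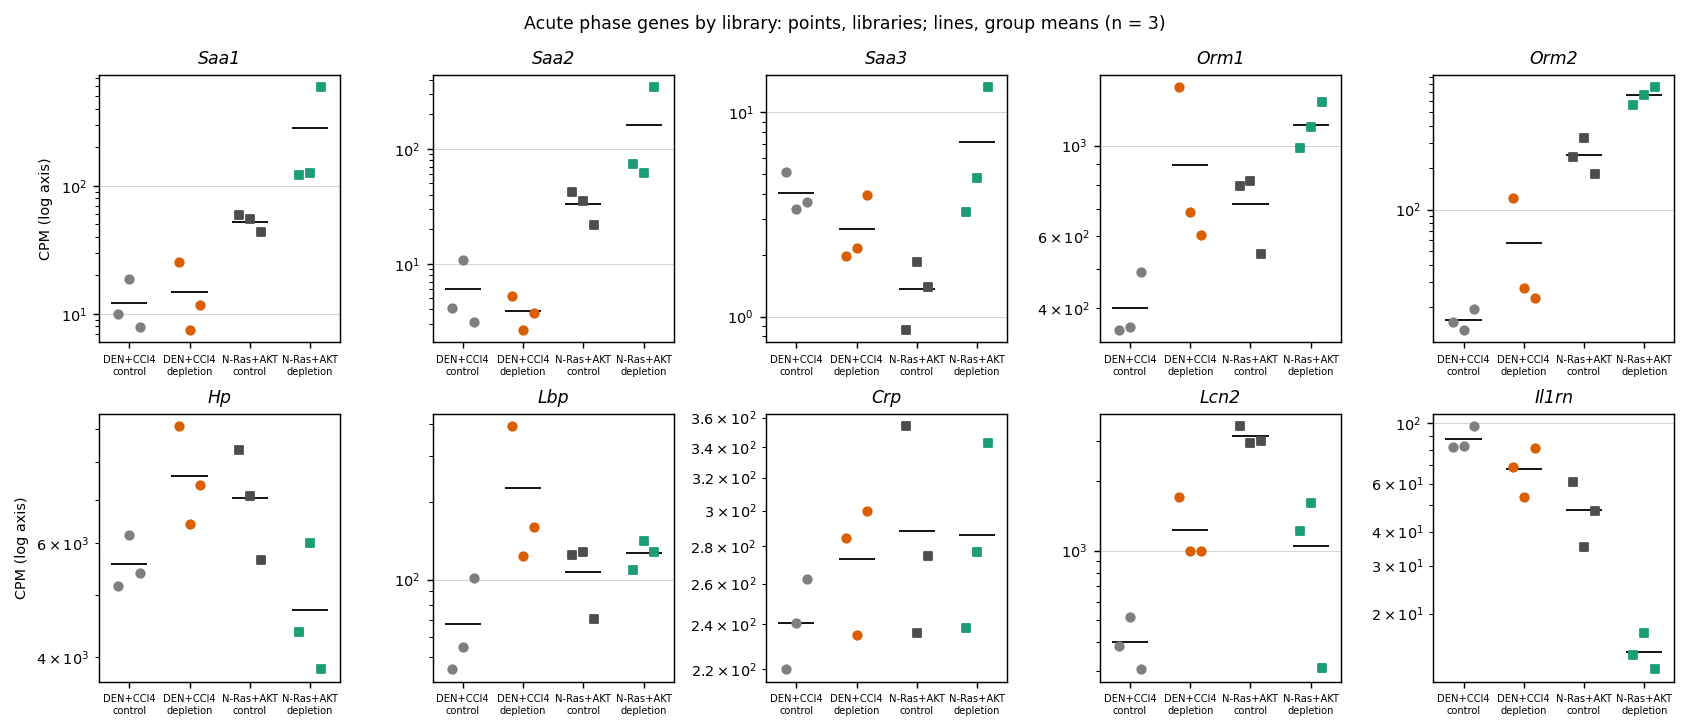
CPM on a log axis of the 10 acute phase genes in the 12 libraries, with 1 point per library and a line at the mean of each group of 3. Saa1, Saa2 and Saa3 sit higher in the N-Ras+AKT depletion libraries than in their controls, Il1rn sits lowest there at 12.5 to 17.0 CPM, and Lcn2 is highest in the N-Ras+AKT controls at 2936 to 3479 CPM.

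The serum amyloid A genes code for small apolipoproteins carried on high-density lipoprotein. In the mouse, Saa1 and Saa2 are the main liver forms and Saa3 is also made by macrophages and fat. The genes lie in 1 cluster on chromosome 7 of GRCm38, with Saa3 at 46711998 to 46715700, the constitutive member Saa4 at 46727998 to 46732603 and Saa1 at 46740497 to 46742980 on the minus strand, and Saa2 at 46751790 to 46754313 on the plus strand. The coding transcripts of Saa1 and Saa2 were 93.5% identical over 612 aligned bases, so the split of reads between them is uncertain. The promoters of the 3 members of this cluster are shown (RefSeq, GRCm38.p6, 250 bases before to 50 after the start). The reason is that Saa1 and Saa2, transcribed in opposite directions, share 96.0% of 298 aligned bases while Saa3 has another sequence. They are Saa1 at chr7:46742931-46743230 (minus), Saa2 at chr7:46751583-46751882 (plus) and Saa3 at chr7:46715627-46715926 (minus). Capitals mark matches to TTGCNNAA (the letters searched for C/EBP) and, first in Saa3, to GGNNNTTCC (NF-kB), on either strand.
Saa1: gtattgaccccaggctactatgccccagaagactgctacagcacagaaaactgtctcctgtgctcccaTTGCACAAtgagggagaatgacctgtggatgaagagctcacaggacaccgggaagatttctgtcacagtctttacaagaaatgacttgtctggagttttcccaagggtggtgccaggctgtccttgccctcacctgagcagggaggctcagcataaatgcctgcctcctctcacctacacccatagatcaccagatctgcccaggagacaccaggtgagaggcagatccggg
Saa2: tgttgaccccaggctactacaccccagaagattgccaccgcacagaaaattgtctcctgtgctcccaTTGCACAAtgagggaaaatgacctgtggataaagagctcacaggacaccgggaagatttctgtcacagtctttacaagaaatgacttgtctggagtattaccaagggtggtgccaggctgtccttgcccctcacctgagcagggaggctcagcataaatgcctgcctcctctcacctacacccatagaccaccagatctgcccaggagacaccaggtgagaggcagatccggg
Saa3: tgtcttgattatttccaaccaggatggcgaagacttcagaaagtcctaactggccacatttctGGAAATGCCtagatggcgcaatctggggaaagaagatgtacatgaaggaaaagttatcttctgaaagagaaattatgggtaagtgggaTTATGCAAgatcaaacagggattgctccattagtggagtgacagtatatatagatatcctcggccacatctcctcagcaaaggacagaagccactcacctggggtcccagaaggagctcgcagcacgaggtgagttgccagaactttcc
Saa1 and Saa2 carry the same 8 letters at −182 and −183 from the start, and Saa3 carries a match on the other strand at −99. Matches to the C/EBP letters are in 10.8% of all 32851 RefSeq promoters of this length and to the NF-kB letters in 18.5%. No match to the STAT letters TTCNNNGAA (8.3% of promoters) was found in the windows of the 7 genes that had an entry. These matches are descriptions of letters, not measured binding sites.

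Saa1 was 10.1, 18.7 and 7.96 CPM in DEN+CCl4 controls 7, 8 and 13, and 25.6, 7.47 and 11.8 in depletion libraries 6, 9 and 10. It was 58.9, 54.7 and 43.5 CPM in N-Ras+AKT controls 3, 10 and 15, and 122, 127 and 596 in depletion libraries 6, 11 and 17. The groups overlapped in the DEN+CCl4 model and did not in the other, where library 17 lay far above the rest. In the N-Ras+AKT model Saa1 rose by a log2 difference of 2.43 (SE 0.67, 5.38-fold, adjusted p = 0.0260). That call is not stable: the adjusted p was 0.123, at a log2 difference of 1.24, without depletion 17, and 0.0793, 0.0604 and 0.0915 without control 3, 10 or 15. The log2 difference of Saa1 in DEN+CCl4 was 0.28 (adjusted p = 0.861, 95% interval −1.17 to 1.73). The difference between the models was 2.15 (SE 0.92, adjusted p = 0.152), which did not pass. It was 0.95 (adjusted p = 0.416) without N-Ras+AKT depletion 17 and 2.78 (adjusted p = 0.102) without DEN+CCl4 depletion 6.

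Saa2 was 4.09, 10.8 and 3.10 CPM in the DEN+CCl4 controls and 5.22, 2.64 and 3.70 after depletion. It was 42.1, 34.99 and 21.9 CPM in the N-Ras+AKT controls and 73.6, 61.2 and 348 after depletion. As with Saa1, the N-Ras+AKT groups were apart and library 17 was the highest. Saa2 rose there by 2.28 (SE 0.68, 4.87-fold, adjusted p = 0.0356). The adjusted p was 0.199, at a log2 difference of 1.03, without depletion 17, and 0.0848, 0.0773 and 0.120 without control 3, 10 or 15. It was 0.0514 without DEN+CCl4 depletion 10, a library of the other model. The DEN+CCl4 log2 difference was −0.65 (adjusted p = 0.674, 95% interval −2.25 to 0.95), and the difference between the models was 2.94 (SE 0.98, adjusted p = 0.0810). That difference was 1.66 (adjusted p = 0.178) without N-Ras+AKT depletion 17 and 2.19 without DEN+CCl4 control 8, and it passed without N-Ras+AKT depletion 11 (3.33, adjusted p = 0.0431) and by DESeq2 (adjusted p = 0.0314). The Saa1 to Saa2 ratio of counts stayed between 1.40 and 4.89 over the 12 libraries, and among the genes tested Saa2 was the nearest to Saa1 over the 12 libraries (root mean square difference of centred log2 CPM 0.49).

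Saa3 was the lowest of the 10 genes per kilobase of exon in all groups but 1, at 3.36 to 5.09 CPM in DEN+CCl4 controls. In that 1 group, N-Ras+AKT depletion, Il1rn was lower by this length (2.62 against 2.73) and higher by the longest coding transcript (5.87 against 3.23). Saa3 was 5.09, 3.36 and 3.62 CPM in the DEN+CCl4 controls and 1.98, 2.16 and 3.92 after depletion. It was 0.858, 1.84 and 1.39 in the N-Ras+AKT controls and 3.25, 4.76 and 13.3 after depletion. These values are 52 to 591 counts per library. All N-Ras+AKT depletion libraries lay above all N-Ras+AKT controls, while the DEN+CCl4 groups overlapped. Saa3 rose in the N-Ras+AKT model by 2.38 (SE 0.51, 5.22-fold, adjusted p = 0.00921), and passed in each of the 12 fits that left out 1 library, with adjusted p up to 0.0396. Without depletion 17 the log2 difference was 1.55 (2.93-fold, adjusted p = 0.0266). Under DEN+CCl4 it was −0.58 (adjusted p = 0.569). The difference between models was 2.96 (SE 0.71, adjusted p = 0.0246), and 2.11 (adjusted p = 0.0384) without N-Ras+AKT depletion 17. That difference no longer passed without DEN+CCl4 control 7 (0.0616), DEN+CCl4 depletion 6 (0.0529) or 9 (0.0632), N-Ras+AKT control 3 (0.0578) or 15 (0.0593), or both libraries that stand apart (1.95, 0.0575). Markers of macrophages and Kupffer cells, cells that can make Saa3, summed to 647 to 860 CPM in the N-Ras+AKT depletion libraries against 234 to 460 in their controls. Of these 15 markers 10 rose (6 without the 2 libraries that stand apart), against 12.8% of all genes, and 1 fell, against 10.8%. None was at 0 in any library. Their part in the Saa3 result was not tested. The genes nearest to Saa3 over the 12 libraries were Acsm5, Acsm1 and Abcb11, with root mean square differences of 0.39, 0.40 and 0.40.

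The orosomucoid genes Orm1 and Orm2 code for alpha-1-acid glycoprotein, a plasma protein that binds drugs and lipids. Orm1, Orm3 and Orm2 follow each other on the plus strand of chromosome 4 (63344560 to 63348163, 63356162 to 63359511 and 63362449 to 63365878). The coding transcripts of Orm1 and Orm2 were 91.0% identical, with an identical run of up to 141 bases, so here too reads may be shared. Orm2 is the member with the widest gap between the 2 control groups, and its promoter (chr4:63362199-63362498, plus strand) is shown with the C/EBP letters at −120 and TATAAA (13.6% of promoters) at −33 in capitals.
Orm2: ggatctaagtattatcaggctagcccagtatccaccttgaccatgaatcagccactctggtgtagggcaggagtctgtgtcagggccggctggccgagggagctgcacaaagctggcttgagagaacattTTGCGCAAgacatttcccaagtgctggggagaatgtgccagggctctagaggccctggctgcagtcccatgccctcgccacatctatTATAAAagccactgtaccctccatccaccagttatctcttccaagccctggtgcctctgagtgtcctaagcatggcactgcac

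Orm1 was 354, 360 and 490 CPM in the DEN+CCl4 controls and 1393, 687 and 604 after depletion. It was 796, 818 and 543 CPM in the N-Ras+AKT controls and 985, 1112 and 1282 after depletion. In both models every depletion library lay above every control, yet neither difference passed the test. The log2 difference was 1.16 in the DEN+CCl4 model (SE 0.30, adjusted p = 0.0867) and 0.65 in the N-Ras+AKT model (SE 0.30, adjusted p = 0.134). Without DEN+CCl4 depletion 10 the first passed (1.37, adjusted p = 0.0397), and without DEN+CCl4 depletion 6 the second did (0.65, adjusted p = 0.0351). Without depletion 6 the DEN+CCl4 log2 difference was 0.69. Between models, the N-Ras+AKT controls were higher than the DEN+CCl4 controls by 0.84 (SE 0.30, adjusted p = 0.0403). That call was lost without DEN+CCl4 control 7 (0.125) or 8 (0.116), N-Ras+AKT control 3 (0.103) or 10 (0.107), or N-Ras+AKT depletion 6 (0.0504) or 11 (0.0522). The gene nearest to Orm1 was Ctsl, at 0.20, followed by Pim1 at 0.22.

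Orm2 was 15.6, 13.6 and 19.4 CPM in the DEN+CCl4 controls and 122, 27.1 and 23.2 after depletion. It was 237, 326 and 180 CPM in the N-Ras+AKT controls and 565, 665 and 766 after depletion. All 6 N-Ras+AKT libraries lay above all 6 DEN+CCl4 libraries, and within each model the groups did not overlap. Orm2 was higher in N-Ras+AKT than in DEN+CCl4 controls by 3.94 (SE 0.60, 15.3-fold, adjusted p = 0.000645). Between the depletion groups it was higher by 3.53 (SE 0.59, 11.6-fold, adjusted p = 0.00125), and by 4.72 without DEN+CCl4 depletion 6. Both calls passed in all 12 fits with 1 library left out. The depletion differences did not pass: 1.83 in DEN+CCl4 (SE 0.55, adjusted p = 0.126), which was 0.64 when depletion 6 was left out, and 1.42 in N-Ras+AKT (SE 0.54, adjusted p = 0.0803). The N-Ras+AKT difference passed without DEN+CCl4 depletion 6 (1.43, adjusted p = 0.00352) or 10 (adjusted p = 0.0487), without both libraries that stand apart (1.31, adjusted p = 0.00865), and with the 2 N-Ras+AKT groups fitted alone (adjusted p = 0.0259).

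The counts of Orm1 exceeded those of Orm2 22.8 to 26.5 times in the DEN+CCl4 controls and 2.51 to 3.36 times in the N-Ras+AKT controls. After depletion the ratio was 11.4, 25.3 and 26.0 in DEN+CCl4 libraries 6, 9 and 10 and 1.67 to 1.74 in the N-Ras+AKT libraries. Thus the models did not overlap in this ratio, and in the N-Ras+AKT model neither did depletion and control. Orm3, the third gene of the cluster, was 0.712 to 1.32 CPM in the DEN+CCl4 controls and 2.24 to 10.6 after depletion. Its N-Ras+AKT range was 4.52 to 15.8 CPM in controls and 26.4 to 40.7 after depletion, and rose there by 1.97 (adjusted p = 0.0402).

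**Figure D2:**
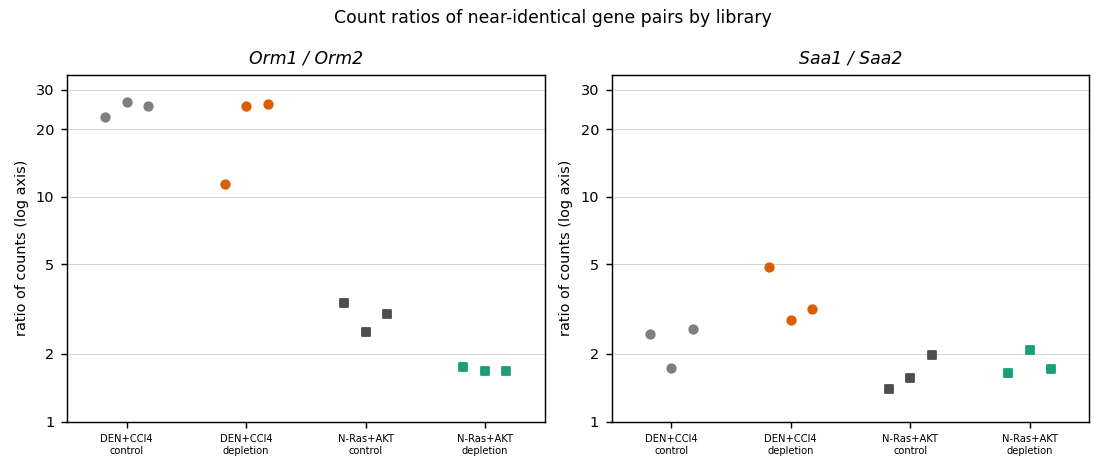
Ratio of counts on a log axis of Orm1 to Orm2 (left) and of Saa1 to Saa2 (right), 1 point per library in 4 groups of 3. The Orm1 to Orm2 ratio lies between 11.4 and 26.5 in the DEN+CCl4 libraries and between 1.67 and 3.36 in the N-Ras+AKT libraries, and that of Saa1 to Saa2 between 1.40 and 4.89 in all.

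Haptoglobin (Hp, chromosome 8, 109575128 to 109579172, minus strand) binds free haemoglobin, and the complex is taken up through Cd163. Per kilobase of exon Hp had the highest level of the 10 genes in every group, at 3474 ± 337 CPM per kilobase in the DEN+CCl4 controls (SD, n = 3), rank 24 of 16999 tested genes with a known length, and rank 10 in the N-Ras+AKT controls. Its levels were 5147, 6186 and 5403 CPM in the DEN+CCl4 controls, 9095, 6415 and 7374 after depletion, 8348, 7101 and 5656 in the N-Ras+AKT controls and 4375, 6012 and 3833 after depletion. Depletion libraries were thus above all controls in the first model, and in the second 2 of 3 were below all controls. Neither difference passed (0.45, adjusted p = 0.311, and −0.57, adjusted p = 0.0899), nor did their difference (−1.02, SE 0.32, adjusted p = 0.0607). The N-Ras+AKT difference passed by DESeq2 (adjusted p = 0.0254), with library totals in place of TMM (0.0320) and without N-Ras+AKT depletion 11 (−0.77, 0.0407). So did the difference between the models (0.00530, 0.0232 and 0.0297). Among the depletion libraries Hp was lower in the N-Ras+AKT than in the DEN+CCl4 model by a log2 difference of −0.69 (SE 0.23, adjusted p = 0.0362). This was lost without DEN+CCl4 control 7 (0.0533), DEN+CCl4 depletion 6 (0.121) or 10 (0.0665), or N-Ras+AKT depletion 6 (0.111) or 17 (0.104). The same call was lost with library totals (−0.37, 0.234), with the groups compared fitted alone (0.0684) and without both libraries that stand apart (−0.44, 0.232).

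Lipopolysaccharide-binding protein (Lbp, chromosome 2, 158306493 to 158332852, plus strand) passes bacterial lipopolysaccharide to CD14. It was 44.9, 54.8 and 101 CPM in the DEN+CCl4 controls and 392, 124 and 160 after depletion. The N-Ras+AKT values were 124, 127 and 70.0 CPM in controls and 109, 141 and 128 after depletion. Depletion lay wholly above control in the DEN+CCl4 model, with library 6 the highest, and the groups overlapped in the other. The log2 differences were 1.75 (SE 0.45, adjusted p = 0.0876) and 0.24 (SE 0.43, adjusted p = 0.737). Without DEN+CCl4 depletion 6 the first was 1.08. The difference between the models was −1.51 (SE 0.62, adjusted p = 0.135). It was −0.84 (adjusted p = 0.268) without DEN+CCl4 depletion 6, and by DESeq2 it passed (adjusted p = 0.0493).

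C-reactive protein (Crp, chromosome 1, 172698055 to 172833031, plus strand) is a pentraxin that marks inflammation in humans but responds little in the mouse. It was 220, 241 and 262 CPM in the DEN+CCl4 controls, 284, 235 and 300 after depletion, 354, 236 and 275 in the N-Ras+AKT controls and 238, 277 and 343 after depletion. The 4 groups overlapped. The depletion differences were 0.18 (95% interval −0.22 to 0.58, adjusted p = 0.634) and −0.01 (−0.41 to 0.39, adjusted p = 0.972), so changes of more than 0.58 on the log2 scale lay outside both intervals. A processed pseudogene, Gm38051, overlaps Crp on the same strand.

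Lipocalin-2 (Lcn2, chromosome 2, 32384633 to 32388252, minus strand) takes bacterial iron carriers out of reach and is made by neutrophils and by stressed hepatocytes. It was 384, 516 and 304 CPM in the DEN+CCl4 controls and 1710, 992 and 991 after depletion. It was 3479, 2936 and 2990 CPM in the N-Ras+AKT controls and 1219, 1613 and 307 after depletion. Within each model the groups did not overlap, depletion lying above control in DEN+CCl4 and below it in N-Ras+AKT, with library 17 the lowest of its model. Lcn2 fell in the N-Ras+AKT model by a log2 difference of −1.58 (SE 0.48, adjusted p = 0.0355). The call was lost without N-Ras+AKT control 3 (0.0949), 10 (0.0558) or 15 (0.0763), N-Ras+AKT depletion 6 (0.0708) or DEN+CCl4 control 7 (0.0517). Lcn2 had a log2 difference of 1.62 in the DEN+CCl4 model (SE 0.48, adjusted p = 0.119), one that passed without N-Ras+AKT depletion 17 (adjusted p = 0.0346). The difference between the models was −3.20 (SE 0.68, adjusted p = 0.0173), and it passed in all 12 fits with 1 library left out, with adjusted p up to 0.0478. Without both libraries that stand apart it was −2.45 (adjusted p = 0.0101). Among control libraries, Lcn2 was 7.80-fold higher in the N-Ras+AKT than in the DEN+CCl4 model (log2 2.96, SE 0.50, adjusted p = 0.00105). Between the depletion groups the log2 difference was −0.23 (adjusted p = 0.733), with a sign that turned when library totals replaced TMM (0.095), or without N-Ras+AKT depletion 17 (0.18) or DEN+CCl4 depletion 6 (0.077).

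The Lcn2 promoter (chr2:32387690-32387989, minus strand) is printed because the depletion differences of this gene had opposite signs in the 2 models, of which the N-Ras+AKT one was called. Capitals mark the C/EBP letters at −216.
Lcn2: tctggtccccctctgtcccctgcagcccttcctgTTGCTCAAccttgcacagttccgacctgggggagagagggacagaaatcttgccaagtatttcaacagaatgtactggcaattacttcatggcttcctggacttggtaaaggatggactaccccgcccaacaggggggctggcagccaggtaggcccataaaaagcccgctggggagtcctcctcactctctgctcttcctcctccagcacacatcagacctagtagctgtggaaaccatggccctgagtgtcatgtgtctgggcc

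Interleukin-1 receptor antagonist (Il1rn, chromosome 2, 24336853 to 24351494, plus strand) occupies the IL-1 receptor without signalling. It was 81.6, 82.3 and 97.7 CPM in the DEN+CCl4 controls and 69.3, 53.8 and 81.1 after depletion. It was 61.1, 35.2 and 47.4 CPM in the N-Ras+AKT controls and 14.1, 17.0 and 12.5 after depletion. Depletion lay below control in both models, narrowly in the first and by a wide gap in the second. Il1rn fell in the N-Ras+AKT model by 1.72 (SE 0.21, to 0.303 of control, adjusted p = 0.00334), rank 12 of the 17013 genes by p, and passed in all 12 fits with 1 library left out (adjusted p up to 0.0183). Its DEN+CCl4 log2 difference was −0.36 (SE 0.20, adjusted p = 0.370). The difference between the models was −1.36 (SE 0.29, adjusted p = 0.0161), with adjusted p up to 0.0459 when 1 library was left out, and it no longer passed without both libraries that stand apart (−1.26, adjusted p = 0.0581). The genes nearest to Il1rn over the 12 libraries were Cdh1 and Btg2, at 0.29 and 0.30.

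**Figure D3:**
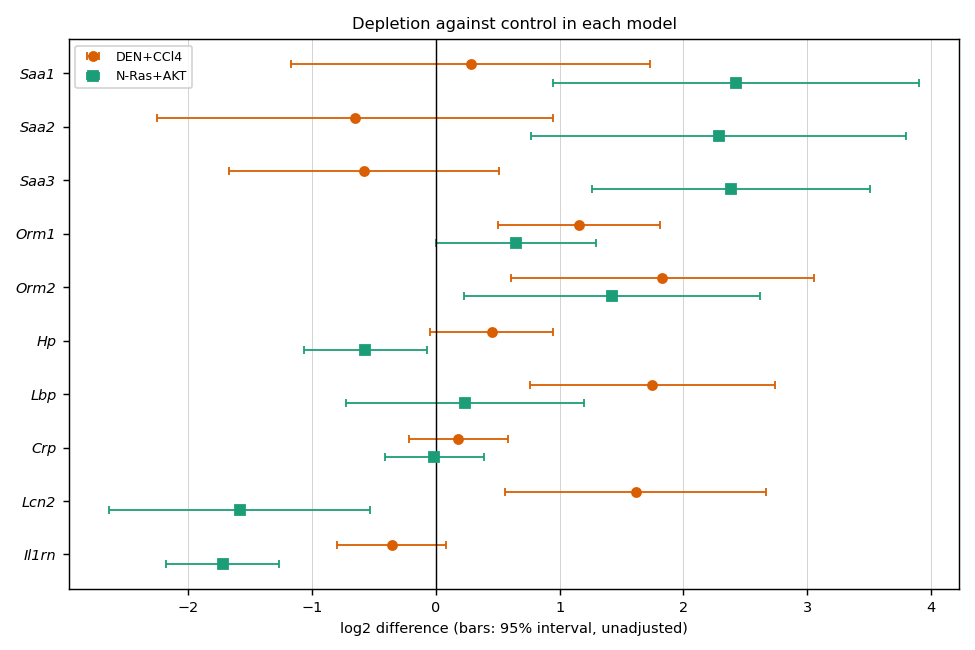
Log2 difference of depletion against control for the 10 acute phase genes in the DEN+CCl4 (circles) and N-Ras+AKT (squares) model, with unadjusted 95% intervals from 3 against 3 libraries. Lcn2 lies at 1.62 in one model and −1.58 in the other, Il1rn at −0.36 and −1.72, and Saa3 at −0.58 and 2.38.

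Neutrophil markers, given because neutrophils make Lcn2 and Il1rn, summed to 25.0 to 37.5 CPM in N-Ras+AKT controls against 21.8 to 33.6 in the depletion libraries of that model, and to 10.3 to 13.8 and 15.9 to 18.0 in the DEN+CCl4 model. Of the 16 listed, 11 were tested, of which edgeR called 1 higher (0 without the 2 libraries that stand apart) and 0 lower after N-Ras+AKT depletion and 0 in either direction in DEN+CCl4. Of all tested genes 12.8% were called higher and 10.8% lower in the N-Ras+AKT model, and 0.112% and 0.259% in DEN+CCl4. The granule gene Mpo, or Elane, Camp or Ly6g, was at 0 in 10 of the 12 libraries. Cholangiocyte markers summed to 7183 to 10365 CPM in N-Ras+AKT controls against 346 to 3515 in the depletion libraries of that model, of which Spp1 made up 84.4% to 98.3%, and 6 of 10 tested fell. DEN+CCl4 libraries had sums of 291 to 569 CPM in controls and 88.7 to 215 after depletion. Endothelial markers summed to 396 to 428 CPM in DEN+CCl4 controls and 148 to 289 with depletion, where 8 of 10 were lower without overlap (16% of all genes). For these 10 edgeR called 0. Limma voom called 1 lower, against 48 of 17013 genes, and DESeq2 8 lower, against 688 of 15679. The part of these cells in the members' results was not tested.

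**Figure D4:**
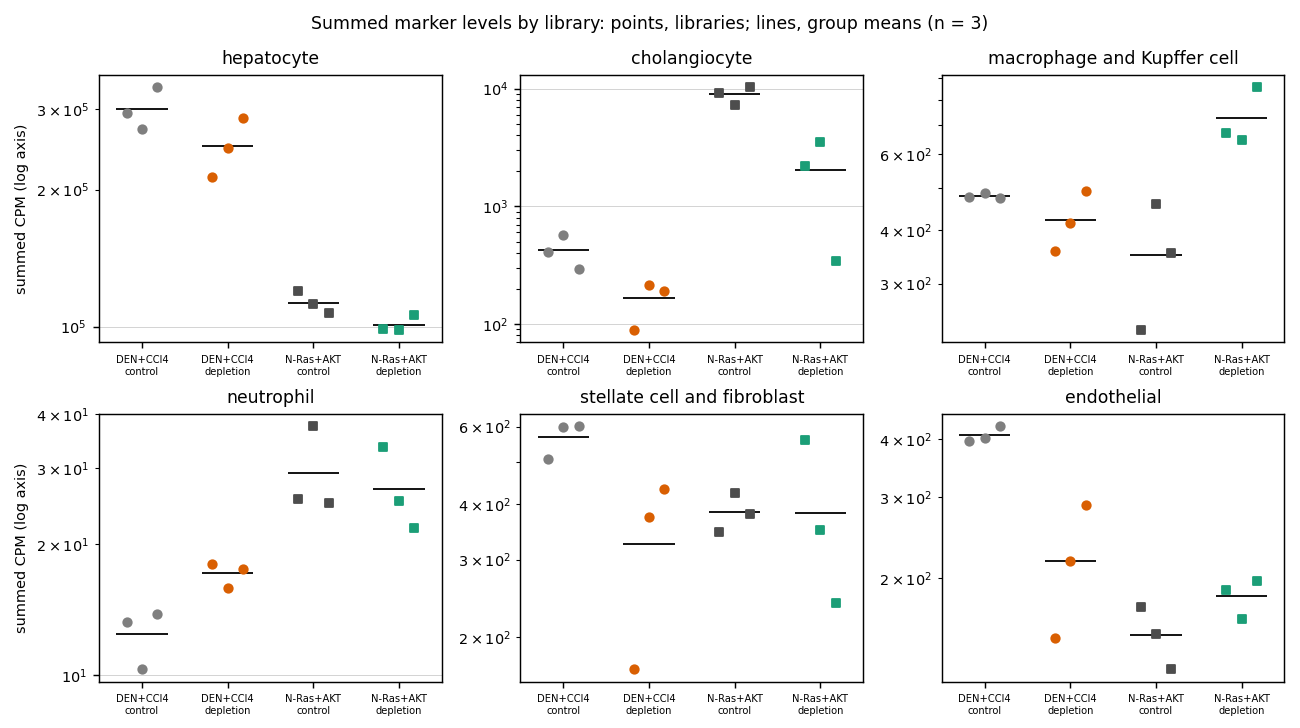
Summed CPM on a log axis of 6 cell type marker lists in the 12 libraries, with 1 point per library and a line at each group mean. Macrophage and Kupffer cell markers lie at 647 to 860 CPM in the N-Ras+AKT depletion libraries against 234 to 460 in their controls, and cholangiocyte markers at 346 to 3515 against 7183 to 10365.

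Between models, 5 of the 10 genes were higher in the N-Ras+AKT than in the DEN+CCl4 controls (20.8% of all genes) and 2 lower (19.8%), with a median of 0.76 against 0.04 for all genes. Between the depletion groups 4 were higher (17.9%) and 2 lower (15.8%). These comparisons share libraries with the depletion comparisons. Of the 32 other positive acute phase genes followed below, 4 were higher and 13 lower among controls (median −0.60). Among depletion libraries 7 of them were higher and 10 lower (median −0.34). Of the 15 negative ones 0 were higher and 10 lower among controls (median −1.02), and 4 and 5 among depletion libraries (median −0.21). Saa1 was higher among controls by 2.09 (SE 0.67, adjusted p = 0.0292) and among depletion libraries by 4.24 (SE 0.73, adjusted p = 0.00157). The latter was 3.04 without N-Ras+AKT depletion 17 and 4.87 without DEN+CCl4 depletion 6. The former was lost without DEN+CCl4 control 7 (0.0930) or 13 (0.102), or N-Ras+AKT control 3 (0.0738) or 10 (0.0607). Saa2 was higher by 2.45 (SE 0.71, adjusted p = 0.0189), lost without DEN+CCl4 control 7 (0.0706) or 13 (0.0723) or N-Ras+AKT control 3 (0.0584), and 3.20 without DEN+CCl4 control 8. Among depletion libraries Saa2 was higher by 5.39 (SE 0.80, 41.9-fold, adjusted p = 0.000729), and by 4.11 without N-Ras+AKT depletion 17.

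Saa3 was lower among N-Ras+AKT controls by −1.56 (SE 0.51, adjusted p = 0.0296) and higher among depletion libraries by 1.40 (SE 0.50, adjusted p = 0.0487). The first was lost without DEN+CCl4 control 7 (0.0909) or 13 (0.0554), or N-Ras+AKT control 3 (0.102) or 15 (0.0737). The second was called in 4 of the 12 fits with 1 library left out, and was 0.56 (adjusted p = 0.293) without N-Ras+AKT depletion 17. The other fits that lost it left out DEN+CCl4 control 7 (0.0605), 8 (0.0636) or 13 (0.0647), DEN+CCl4 depletion 6 (0.143) or 9 (0.138), or N-Ras+AKT control 10 (0.0537) or 15 (0.0673). Il1rn, the antagonist of IL-1, was lower in the N-Ras+AKT model among controls (−0.86, SE 0.20, adjusted p = 0.00567) and among depletion libraries (−2.23, SE 0.21, adjusted p = 3.77e-05). Scaling by library totals instead of TMM moved the median of all genes between the controls to 0.68, and the Il1rn value there to −0.21 (adjusted p = 0.381) and that of Saa3 to −0.91 (adjusted p = 0.105). Hepatocyte markers summed to 106933 to 119794 CPM in N-Ras+AKT controls against 272139 to 336566 in the DEN+CCl4 controls, and 11 of 13 were lower in the former (6 with library totals). Alb made up 47.0% to 57.6% of these sums. The hepatocyte list shares Alb, Ttr, Apoa1, Trf and Ahsg with the negative acute phase genes, so the lists are not independent. It also shares Fgb with the other positive acute phase genes and Hnf4a with the signalling and transcription factors. Between the same controls 7 of 10 endothelial markers were lower and 0 higher, 8 of 10 cholangiocyte markers higher and 1 lower, and 6 of 11 neutrophil markers higher and 1 lower. Of all tested genes 20.8% were called higher and 19.8% lower between these controls. Endothelial markers summed to 127 to 174 CPM in N-Ras+AKT controls against 396 to 428 in the DEN+CCl4 controls. Their part in the model differences was not tested.

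**Figure D5:**
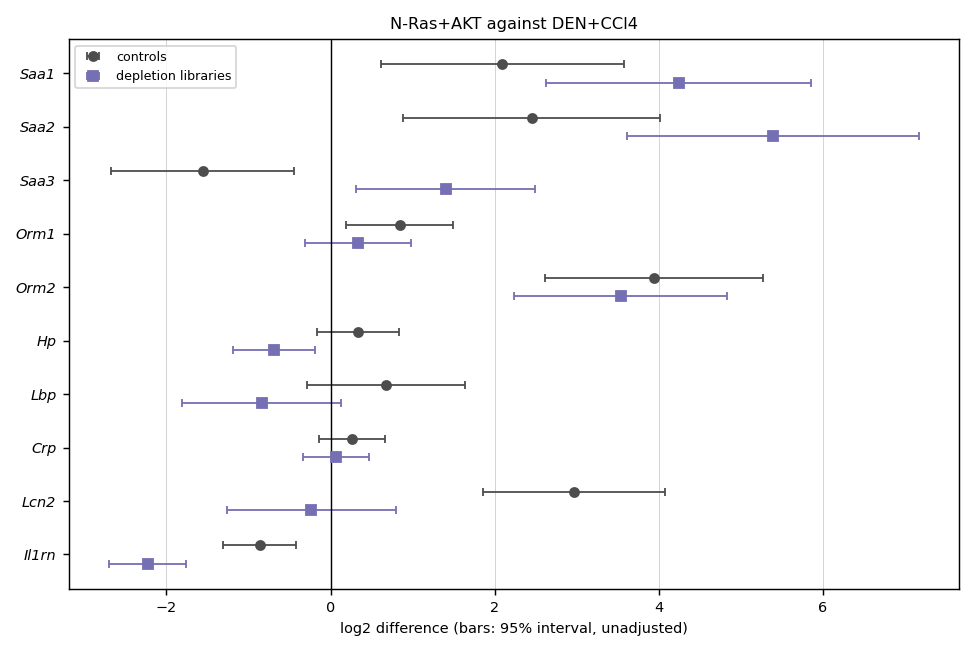
Log2 difference of N-Ras+AKT against DEN+CCl4 for the 10 acute phase genes, among controls (circles) and among depletion libraries (squares), with unadjusted 95% intervals from 3 against 3 libraries. Orm2 lies at 3.94 and 3.53, Saa2 at 2.45 and 5.39, and Il1rn at −0.86 and −2.23.

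Levels can be ordered between genes only per kilobase. In the DEN+CCl4 controls the order of mean CPM per kilobase of exon was Hp, Orm1 (518 ± 99.0, SD, n = 3), Lcn2 (153 ± 40.8), Crp (69.9 ± 6.16), Orm2 (20.9 ± 3.80), Il1rn (15.8 ± 1.64), Lbp (13.9 ± 6.24), Saa1 (4.94 ± 2.30), Saa2 (2.38 ± 1.67) and Saa3 (1.54 ± 0.358). The neighbours Il1rn and Lbp, and Saa2 and Saa3, lay within 1 SD of each other. In the N-Ras+AKT depletion libraries Orm1 stood at 1453 ± 192, Orm2 at 858 ± 130, Lcn2 at 399 ± 255, Saa1 at 114 ± 110 and Il1rn at 2.62 ± 0.414. Among the 16999 genes ranked, Orm2 was at 1508 in the DEN+CCl4 controls and at 59 there, and Il1rn at 1906 and 7207. The exon length of Saa1 (2478 bases) is far above that of its longest coding transcript (609), so per-kilobase values of Saa1 and Saa2 depend on the length used. Those of other members did too. With coding-transcript lengths in the DEN+CCl4 controls, Lcn2 was at 439, Il1rn at 35.2, Lbp at 26.6 and Orm2 at 20.9. By that length Il1rn and Lbp stood above Orm2.

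Of 32 other positive acute phase genes, 7 rose (12.8% of all genes) and 3 fell (10.8%) with N-Ras+AKT depletion. Their log2 differences ran from −3.004 to 3.22, with a median of 0.44. The 32 include Spp1, Cd14, Hpx and Fgb, which are also in other lists, and the constitutive Saa4, which was among the 7 that rose. Hamp2, of the hepcidin family, rose by 3.20 (adjusted p = 0.00345), from 0.0825 to 0.121 CPM in controls to 0.572 to 1.65. Il18bp, which traps IL-18, rose by 0.99 (adjusted p = 0.00384), and Mbl2, a lectin that starts the complement cascade, by 2.02 (adjusted p = 0.00508). Serpina3g, a serine protease inhibitor, rose by 1.26 (adjusted p = 0.0119). The 3 that fell, named after their values were seen, were the protease inhibitor A2m (−3.004, adjusted p = 0.0340), from 36.2 to 77.3 CPM in controls to 0.271 to 14.9, the copper carrier Cp (−0.74, adjusted p = 0.0281) and Cd14 (−1.29, adjusted p = 0.0260). For DEN+CCl4 edgeR called 0 of the 32 in either direction (5 higher and 5 lower at an unadjusted p under 0.05). DESeq2 called 2 higher and 1 lower, and limma voom 0. The difference between models was called higher for 5 (7.98% of all genes) and lower for 2 (3.6%), and for 2 and 0 without the 2 libraries that stand apart.

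Of 15 negative acute phase genes, edgeR called 6 higher (12.8% of all genes) and 0 lower (10.8%) after N-Ras+AKT depletion, with a median of 0.33. By DESeq2 the counts were 7 and 2, by limma voom 6 and 1, and with library totals 5 and 3. Groups did not overlap for 6 that were higher (21.4% of all genes) and 3 that were lower (21.5%). The 15 genes summed to 98730.5 to 118414 CPM in controls and 87402 to 90110 after depletion, of which Alb made up 47.5% to 58.2%. Without the 2 libraries that stand apart, 3 rose and 0 fell, and 0 were called in DEN+CCl4. Serpina6, which codes for corticosteroid-binding globulin, was 5.26 to 11.0 CPM in controls and 75.4 to 169 after depletion, a rise of 3.61 (adjusted p = 0.00334). By contrast Serpina6 in the DEN+CCl4 model was 82.7 to 118 CPM in controls and 7.28 to 23.1 after depletion, a fall of −2.80 (adjusted p = 0.0433). The difference between the models was 6.42 (adjusted p = 0.00380). Cyp8b1, a bile acid enzyme, rose in the N-Ras+AKT model by 5.20 (adjusted p = 0.00381), and Fetub and Apoa2 by 1.57 and 0.80 (adjusted p = 0.00334 and 0.0206). Of the 15, 1 fell in DEN+CCl4 (0.259% of all genes) and 0 rose (0.112%), with a median of −0.46. At an unadjusted p under 0.05, 0 were higher there and 5 lower, DESeq2 called 0 higher and 4 lower and limma voom 0 and 1, and 8 were lower without overlap (16% of all genes).

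Of the 22 upstream cytokines and receptors 18 were tested. Il6 was 0 to 0.297 CPM and Osm, the related cytokine oncostatin M, 0.0226 to 0.363 CPM, and neither passed the filter. Il1b was 0.441 to 1.24 CPM in the DEN+CCl4 libraries and 1.86 to 4.88 in the N-Ras+AKT libraries, and Tnf 0.0289 to 0.401 and 0.484 to 1.45. Il1b and Tnf were not called in either depletion comparison. After N-Ras+AKT depletion 5 genes rose (12.8% of all genes) and 4 fell (10.8%), with a median of 0.19. The counts were 3 and 1 without the 2 libraries that stand apart, and 2 and 4 with library totals. Il6ra, the receptor for IL-6, rose by 1.08 (adjusted p = 0.00384), from 20.1 to 26.4 CPM in controls to 39.9 to 60.0. Its signalling partner Il6st (gp130) rose by 0.64 (adjusted p = 0.0350). Lifr and Il1rap, receptor subunits for LIF and IL-1, rose by 1.85 and 0.63 (adjusted p = 0.0114 and 0.0190), and the lipopolysaccharide co-receptor Cd14 fell by 1.29 (adjusted p = 0.0260). The other called genes are named after their values were seen. Il1a rose, from 1.62 to 2.26 CPM in controls to 2.97 to 3.93 after depletion. Osmr fell (20.6 to 34.6 CPM in controls, 5.89 to 19.1 after depletion), as did Lif (4.34 to 5.35, 0.496 to 2.94) and Il1r2 (1.34 to 3.02, 0.158 to 1.03). With DEN+CCl4, edgeR called 0 in either direction (4 higher and 1 lower at an unadjusted p under 0.05), DESeq2 3 higher and 1 lower and limma voom 0.

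Among the 19 signalling and transcription factors, Nfkb2 and Relb, the noncanonical NF-kB subunits, moved in opposite directions in the 2 models. Relb was 3.24, 2.29 and 3.62 CPM in the DEN+CCl4 controls and 9.99, 8.28 and 7.37 after depletion. It was 11.2, 7.10 and 7.84 CPM in the N-Ras+AKT controls and 4.73, 3.30 and 2.50 after depletion. Like Lcn2, it was apart between the groups of each model, in opposite directions. Relb rose by 1.49 (adjusted p = 0.0450) in DEN+CCl4, fell by 1.31 (adjusted p = 0.00665) in N-Ras+AKT, and the difference was −2.80 (adjusted p = 0.00595). Nfkb2 rose by 0.88 (adjusted p = 0.0427), fell by 0.89 (adjusted p = 0.00439), and differed by −1.77 (adjusted p = 0.00437). Junb, an AP-1 subunit, and Hnf4a, a hepatocyte factor, changed in the N-Ras+AKT model by −1.32 (adjusted p = 0.0106) and 0.56 (adjusted p = 0.0188). In that model 2 of the 19 rose (12.8% of all genes) and 5 fell (10.8%). In DEN+CCl4 2 rose (0.112% of all genes) and 0 fell (0.259%). The DEN+CCl4 counts were 5 higher and 0 lower at an unadjusted p under 0.05, 5 and 0 by DESeq2, and 1 and 0 by limma voom. With library totals 0 of the 19 rose and 5 fell in the N-Ras+AKT model. Without the libraries DEN+CCl4 depletion 6 and N-Ras+AKT depletion 17, 0 rose in DEN+CCl4 and 3 fell in N-Ras+AKT. Stat3 was 128 to 188 CPM in the DEN+CCl4 and 94.2 to 123 in the N-Ras+AKT libraries, Socs3 4.08 to 11.8 and 10.3 to 16.5, Cebpb 36.6 to 61.5 and 22.1 to 46.1, and Cebpd 6.57 to 15.9 and 4.47 to 9.24. None of these 4 was called in a depletion comparison.

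Of 13 receptors and partners of the proteins themselves, 3 rose (12.8% of all genes) and 2 fell (10.8%) after N-Ras+AKT depletion (median 0.15). For DEN+CCl4 edgeR called 0 (2 higher and 2 lower at an unadjusted p under 0.05, 2 higher and 1 lower by DESeq2, 0 by limma voom). Without the 2 libraries that stand apart, 1 rose and 1 fell in N-Ras+AKT. Fpr2, a receptor that serum amyloid A activates on phagocytes, rose by 1.70 (adjusted p = 0.00934), from 0.396 to 0.939 CPM in controls to 1.96 to 2.35. The Fc receptor Fcgr2b, which binds Crp, rose by 0.87 (adjusted p = 0.0273). Ager, a receptor for advanced glycation end products, fell by 1.94 (adjusted p = 0.0185), at 0.0677 to 0.808 CPM over the 12 libraries.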

How the data were processed

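Frozen tumour tissue gave the RNA, from which poly-A libraries (KAPA mRNA HyperPrep) were sequenced on an Illumina NovaSeq, per the labels' protocols. The authors deposited raw counts per gene, whole numbers without normalization, in 1 table of 12 bulk libraries and 55335 Ensembl identifiers. The submitters' processing notes list RSEM 1.3.1, STAR 2.7.3, Cell Ranger 3.0.2 and the build mm10 without saying what each was used for, so counts may be rounded RSEM estimates in which a model splits shared reads. The strand setting and annotation release are not given in those sources. Symbols came from GENCODE M21 on GRCm38 (55154 identifiers matched, and the 181 others held 0.0064% of counts). Single-cell samples were not analysed here.

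Groups and library numbers were read from the titles. The fit used edgeR 4.0.16 (R 4.3.3) with filterByExpr, TMM factors (0.773 to 1.323), 4 group means over 12 libraries, robust quasi-likelihood and 8 residual degrees of freedom, at a common biological coefficient of variation of 0.238. The code was tested on simulated data. SEs follow from the F statistic, and 95% intervals use its degrees of freedom. Likeness between genes was the root mean square difference of centred log2 CPM (prior count 2). Alternatives used DESeq2 1.42.0, limma 3.58.1, other scalings and filters, and left out libraries. Scaling by library totals and the use of coding-transcript lengths were chosen after seeing the data. The members, the lists and the rule for named genes were chosen with earlier results of these data known. That rule names all 10 members, 10 fixed pathway genes, Prom1, and up to 4 called genes with the smallest adjusted p per list and comparison. Orm3 and Saa4 were added as neighbours of members.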

Additional observations from a re-analysis of the deposited data

Results flagged for a closer look

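The effect of depletion differed between the 2 tumour models for 3 of the 10 genes by the test of the difference itself (N-Ras+AKT minus DEN+CCl4, edgeR quasi-likelihood test over 12 libraries). Of the 10, 1 was called in the higher direction (7.98% of all genes) and 2 in the lower one (3.6%). Saa3, a serum amyloid A gene also made by macrophages, differed by 2.96 on the log2 scale (adjusted p = 0.0246), with −0.58 in the DEN+CCl4 and 2.38 in the N-Ras+AKT model. It did not pass in 5 of 12 fits that left out 1 library, nor without DEN+CCl4 depletion 6 and N-Ras+AKT depletion 17 together (0.0575). Lcn2, the siderophore-binding lipocalin, differed by −3.20 (adjusted p = 0.0173), being higher in 3 of 3 depletion libraries in DEN+CCl4 and lower in 3 of 3 in N-Ras+AKT. Il1rn, the IL-1 receptor antagonist, differed by −1.36 (adjusted p = 0.0161), with −0.36 and −1.72 in the 2 models, and did not pass without those 2 libraries (0.0581). The tumours of the models were also collected at different times after tamoxifen (16 and 6 days), which cannot be told apart from the model.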

How the results depend on the processing

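Over the 5 comparisons, 878 of 990 values of single genes under an alternative kept their direction and side of the threshold, 72 lost a call, 24 gained one and 16 turned sign. Most of the 990 belong to differences that the main fit did not call and that had no call to lose. Saa3 and Il1rn after N-Ras+AKT depletion kept their calls under all 20 alternatives, and so did Lcn2 in the difference of effects under all 19 that could be fitted. Without a filter on low counts Saa1, Saa2 and Lcn2 lost theirs after N-Ras+AKT depletion (adjusted p = 0.0812, 0.109 and 0.103), and with the 2 groups fitted alone so did Saa2 (0.0575) and Lcn2 (0.0770), while Orm2 passed (0.0259). With library totals Saa2 had 0.0517. The cause was not tested. Without both libraries that stand apart, the difference of effects was lost for Saa3 (0.0575) and Il1rn (0.0581). Values that turned sign were not called before or after. They were Lcn2 between depletion groups (0.095 with library totals, 0.48 without both libraries apart, and −0.69 to 0.18 with 1 library left out, 0.077 without DEN+CCl4 depletion 6), Saa1 after DEN+CCl4 depletion (−0.35 without both, −0.35 to 0.73 with 1 left out), Saa2 there (−0.97 to 0.10), Orm2 in the difference of effects (0.050 by limma voom, 0.67 without both, −0.78 to 0.79), Crp between depletion groups (−0.088 without both, −0.11 to 0.18, −0.029 without DEN+CCl4 depletion 9) and Crp after N-Ras+AKT depletion (−0.17 to 0.16).

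Counts of called genes moved as follows. Library totals gave 41 genes after DEN+CCl4 depletion, 2970 in the difference and 10460 between controls, with 8 members higher and 0 lower between controls and 1 lower between depletion groups. This scaling also moved the share of calls in the higher direction to 51.2%, 29.1%, 27.8%, 89.9% and 82.5% in the 5 comparisons (DEN+CCl4 depletion, N-Ras+AKT depletion, difference, controls, depletion groups), from 30.2%, 54.3%, 68.9%, 51.3% and 53.2%, and the median of all genes to 0.12, −0.23, −0.36, 0.68 and 0.35. DESeq2 gave 1066 genes and 4 members higher after DEN+CCl4 depletion, and 2984 genes with 2 members higher and 4 lower in the difference. Limma voom gave 1 member lower between controls. Without a filter 171 genes were called after DEN+CCl4 depletion, 1 member higher and 1 lower after N-Ras+AKT depletion, and 3 higher and 1 lower between controls. The compared groups alone gave 13 and 2626 genes in the 2 depletion comparisons, 1 member lower in the N-Ras+AKT one and 1 lower between depletion groups. Without both libraries apart the counts were 26, 2429 and 844 genes in the depletion comparisons and their difference, with 0 members higher and 1 lower in the difference and 1 lower between depletion groups. With 1 library left out, genes called ranged from 2 to 465, 1768 to 4611, 895 to 2326, 5349 to 7503 and 4414 to 5839 in the 5 comparisons, members higher from 0 to 1, 1 to 5, 0 to 2, 2 to 5 and 3 to 4, and members lower from 0 to 0, 1 to 3, 2 to 3, 1 to 2 and 1 to 2. No paired analysis was possible because the groups compared share fewer than 2 replicate numbers.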
